A study of Mus musculus with 12 samples.

Results

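Ch25h, the liver X receptors (LXRs) and a set of sterol efflux and LXR target genes were followed across 12 mouse RNA-seq libraries. The 10 genes were Ch25h, Nr1h3, Nr1h2, Abca1, Abcg1, Abcg5, Abcg8, Apoe, Mylip and Lpcat3, each taken by its symbol from the 55335 gene rows of the count table. They were selected on the genotype differences already measured in these libraries, so those differences are described here and not used as tests. All 10 were found, each with 1 row.

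Bone marrow derived macrophages (BMDMs) and livers came from Tshr f/f mice, whose thyrotropin receptor gene Tshr carries loxP sites, and from Tshr f/f,Lyz2-Cre littermates (Tshr MKO), in which Cre is driven by the Lyz2 promoter, active in myeloid cells. All mice were male. The labels give an age of 6 weeks for the BMDM donors, for which the methods give 6 to 8 weeks, and for the start of the high fat diet. All 6 BMDM libraries came from cells grown for 7 days with 10 ng/mL M-CSF and then given 1 ng/mL TSH for 24 h, so no library shows macrophages without TSH. All 6 livers came from mice fed the high fat diet for 9 weeks, fasted for 8 h and given 1.5 U/kg insulin for 5 min. Each genotype had n = 3 libraries per tissue.

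LXRα, encoded by Nr1h3, and LXRβ, encoded by Nr1h2, are nuclear receptors that bind oxysterols and, paired with a retinoid X receptor, raise the transcription of genes that move cholesterol out of cells. Ch25h makes 25-hydroxycholesterol, an oxysterol that macrophages release after interferon or Toll-like receptor stimulation, and that also holds the cholesterol synthesis factor SREBP2 inactive. In liver, hepatocytes use ABCG5 with ABCG8 to pass sterols into bile, and macrophages use ABCA1, ABCG1 and apolipoprotein E to hand cholesterol to lipoproteins.

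The libraries held 28962878 to 40954211 counts each. Values below are CPM, a gene's count divided by its library's total and given per 1000000 reads, scaled by edgeR's TMM factors within each tissue unless stated. Hepatocyte and macrophage markers fitted both labels: the 6 hepatocyte markers (Alb among them) were absent from the reads of control BMDMs and summed to 73889 to 98213 CPM in Tshr f/f livers, and the 6 macrophage markers summed to 14306 to 29288 CPM over the BMDM libraries. The 4 stellate cell or fibroblast markers were read in BMDMs too. They summed to 494, 1319 and 502 CPM in f/f and 440, 520 and 309 CPM in MKO, above the 28.3 to 257 CPM of f/f livers. These BMDM sums came almost wholly from Col1a1 and Dcn, with Col1a1 at 1116 CPM in f/f replicate 2, while Lrat was at 0. Their part in the BMDM values below was not tested. Counts of Tshr, the deleted gene, were 0, 0 and 2 in the control BMDMs, 0, 0 and 5 in Tshr MKO BMDMs and 0 in all 6 livers, so it checked no genotype label. Lyz2 was at 8769 to 9836 CPM in Tshr f/f BMDMs and 14528 to 22306 CPM in MKO BMDMs, and at 27.7 to 59.9 CPM in f/f livers and 1.56 to 106 CPM in MKO livers. BMDM f/f replicate 3 stood apart, with a scaling factor of 0.738 against 0.993 to 1.11 in the other BMDM libraries. For the livers, the sources disagreed about the genotype: of 72 liver receptor counts that also exist under genotype headings, 72 equaled a count of a library that the labels place in the other genotype. Liver directions here follow the labels and would turn round under those headings, and the genotype by tissue values would change with them. The labels do not tie libraries to separate mice or cultures, so p-values measure the spread between these libraries only.

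The promoter windows of the members were read from RefSeq (GRCm38.p6) for 9 of the 10 genes, as 250 bases before to 50 after each start site, 13 windows in all. Ch25h and Abca1 are printed because they carried the only motif matches of the search. The Ch25h window lay at chr19:34475099-34475398 on the minus strand, with the cAMP response element TGACGTCA in capitals, starting 61 bases before the start site.
Ch25h: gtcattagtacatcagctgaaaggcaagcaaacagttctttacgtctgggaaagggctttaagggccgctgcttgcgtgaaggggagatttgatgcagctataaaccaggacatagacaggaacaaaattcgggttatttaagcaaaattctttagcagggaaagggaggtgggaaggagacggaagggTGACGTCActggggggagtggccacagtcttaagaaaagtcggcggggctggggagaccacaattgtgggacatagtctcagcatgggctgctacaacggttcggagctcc
The Abca1 window lay at chr4:53159846-53160145 on the minus strand, with the E-box CACGTG in capitals, starting 147 bases before the start site.
Abca1: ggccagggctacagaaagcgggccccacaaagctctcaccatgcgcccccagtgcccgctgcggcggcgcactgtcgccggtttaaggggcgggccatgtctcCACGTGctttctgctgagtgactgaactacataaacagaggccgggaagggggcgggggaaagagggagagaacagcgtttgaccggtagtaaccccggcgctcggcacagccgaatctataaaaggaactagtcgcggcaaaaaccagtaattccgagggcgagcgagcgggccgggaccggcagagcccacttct
TGACGTCA was present on either strand in 1.79% of 32851 promoter windows and CACGTG in 7.15%. The hexamer AGGTCA, the core sequence that many nuclear receptors read, was in 16.3% of all windows and in 0 of the 13 member windows. Its direct repeat with a 4-base gap, the usual LXR element, was in 0.0152% of windows and in 0 of 13, and the repeat with 1 mismatch allowed in each copy was in 1.75% and 0 of 13. A pair of GAAA with a 2-base gap, the core of interferon response elements, was in 3.44% and 0 of 13, and the NF-kB consensus was in 8.46% and 0 of 13. These counts cover only exact matches, or 1 mismatch in each copy where stated, so elements with more mismatches inside these windows were missed. They say nothing of whether the factors act at these promoters or elsewhere.

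Abcg5 and Abcg8 are printed because their promoters overlap. Their RefSeq start sites stood 110 bases apart on opposite strands of chromosome 17, and their windows, chr17:84682962-84683261 (Abcg5, minus strand) and chr17:84682871-84683170 (Abcg8, plus strand), had 209 bases in common, shown in capitals.
Abcg5: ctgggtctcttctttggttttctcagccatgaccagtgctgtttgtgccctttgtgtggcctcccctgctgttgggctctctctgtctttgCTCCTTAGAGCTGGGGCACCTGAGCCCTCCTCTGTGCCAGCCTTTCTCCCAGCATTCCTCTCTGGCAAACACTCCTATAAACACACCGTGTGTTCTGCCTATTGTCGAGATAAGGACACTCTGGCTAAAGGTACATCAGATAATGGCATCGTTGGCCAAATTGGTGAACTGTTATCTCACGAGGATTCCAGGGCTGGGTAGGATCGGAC
Abcg8: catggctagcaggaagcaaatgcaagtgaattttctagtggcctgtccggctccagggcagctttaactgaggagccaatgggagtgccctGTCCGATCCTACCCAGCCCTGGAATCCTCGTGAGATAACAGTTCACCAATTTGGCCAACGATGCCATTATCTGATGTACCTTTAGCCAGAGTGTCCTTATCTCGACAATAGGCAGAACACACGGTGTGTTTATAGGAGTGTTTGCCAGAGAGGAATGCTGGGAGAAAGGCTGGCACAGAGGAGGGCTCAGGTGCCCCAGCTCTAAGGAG

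In BMDMs, Ch25h was the member with the widest gap between genotypes. Its gene (ENSMUSG00000050370, chromosome 19, 34473778 to 34475164 on GRCm38, minus strand) is a single exon. It had 877, 556 and 877 counts in the 3 Tshr f/f libraries and 80, 84 and 45 in the 3 Tshr MKO libraries. In CPM these were 22.0, 12.7 and 33.7 against 2.09, 2.24 and 1.08. The lowest f/f library was above every MKO library, and the group means were 22.8 ± 10.5 and 1.80 ± 0.628 (SD, n = 3). The log2 fold change, MKO over f/f, was -3.66 ± 0.47 (SE), a 12.6-fold lower level in MKO. With each library left out in turn it ranged from -3.95 to -3.26, the latter without f/f replicate 3. Gm26902, a bidirectional promoter long noncoding RNA, overlaps Ch25h on the other strand but held 122 counts over all 12 libraries. BMDMs are a bulk culture, so fewer cells of a kind and less RNA per cell cannot be told apart.

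**Figure D1:**
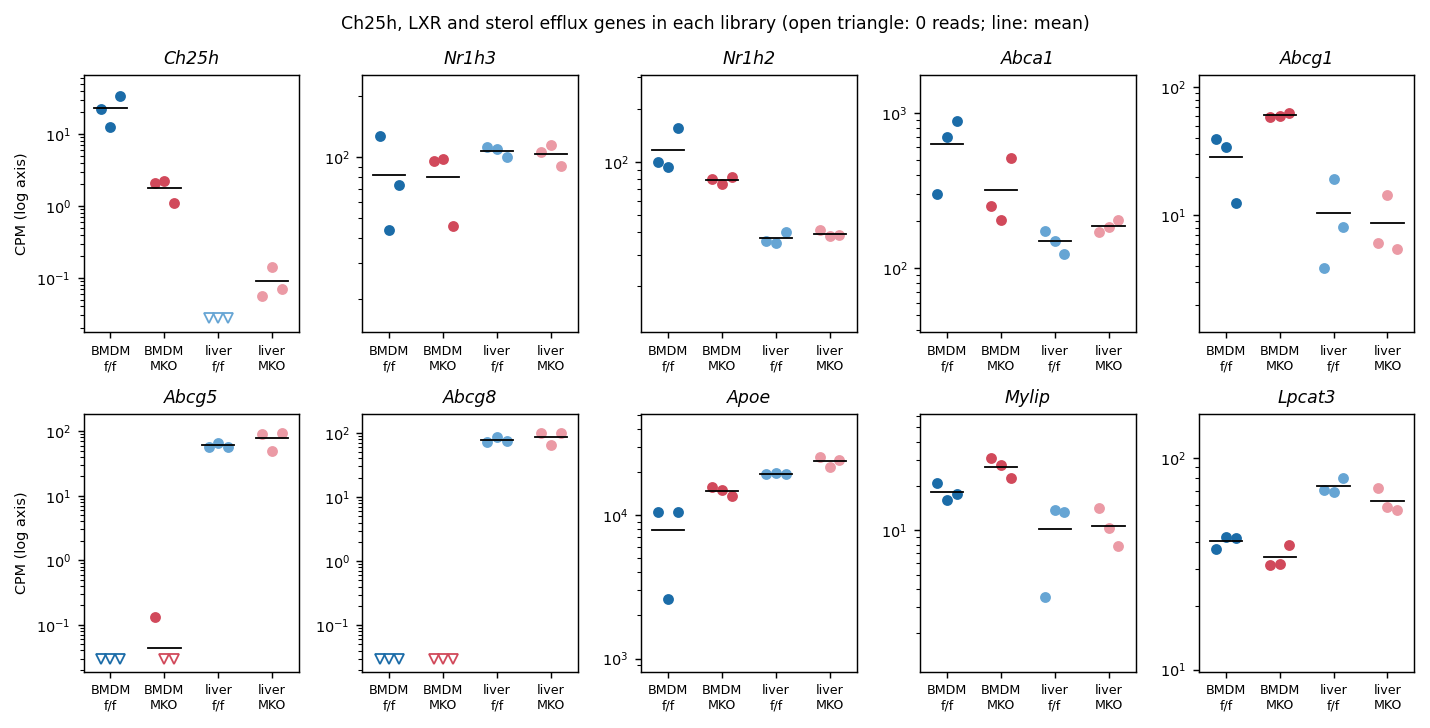
Each panel plots 1 gene in CPM on a log axis, with 1 point per library in BMDM f/f, BMDM MKO, liver f/f and liver MKO, a line at each group's mean and an open triangle for 0 reads. Ch25h sat between 12.7 and 33.7 CPM in the 3 BMDM f/f libraries and at 2.24 CPM or less in the other 9, and Abcg5 and Abcg8 were near or at 0 reads in BMDMs. CPM was scaled within each tissue, so heights compare within BMDMs or within livers.

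Of the receptors, Nr1h2 and not Nr1h3 had separate groups in BMDMs. Nr1h2 (LXRβ, the receptor found in most cells) stood at 99.4, 93.2 and 155.7 CPM in Tshr f/f and 80.3, 74.6 and 82.5 CPM in MKO. Every MKO library was below every f/f library, with a log2 fold change of -0.55 ± 0.22 (SE), which was -0.28 without f/f replicate 3. Nr1h3 (LXRα, enriched in macrophages and liver) stood at 127.6, 43.9 and 72.6 CPM in f/f and 95.7, 97.7 and 45.7 CPM in MKO. The groups overlapped, the log2 fold change was -0.03 ± 0.45 (SE), and it was 0.49 without f/f replicate 1.

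The cholesterol transporters differed in direction from each other. Abca1, which loads cholesterol onto lipid-poor apolipoprotein A-I, was at 299.1, 701 and 886 CPM in f/f BMDMs and 250, 205 and 510 CPM in MKO BMDMs. The groups overlapped, since f/f replicate 1 lay below MKO replicate 3, and the log2 fold change was -0.97 ± 0.51 (SE), or -1.47 to -0.64 with a library left out. Abcg1, which passes cholesterol to high density lipoprotein, was at 39.4, 34.1 and 12.4 CPM in f/f and 58.6, 59.5 and 63.1 CPM in MKO. All MKO values were higher, with a log2 fold change of 1.07 ± 0.40 (SE) that ranged from 0.72, without f/f replicate 3, to 1.39. Abcg8 had 0 counts in all 6 BMDM libraries, where 3 counts would have been 0.0687 to 0.115 CPM. Abcg5 had 0 counts in 5 of them and 5 counts in MKO replicate 1.

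Apoe, the lipoprotein ligand that macrophages secrete, was at 10584, 2591 and 10510 CPM in f/f BMDMs and 15715, 14867 and 13663 CPM in MKO. The groups did not overlap, and f/f replicate 2 lay well below the other f/f libraries. The log2 fold change was 0.90 ± 0.53 (SE), and 0.48 without that library. Mylip, a ubiquitin ligase that limits lipoprotein uptake, was at 20.9, 16.1 and 17.6 CPM in f/f and 30.8, 27.7 and 22.5 CPM in MKO. Its groups were separate too, with a log2 fold change of 0.57 ± 0.17 (SE). Lpcat3, which puts polyunsaturated chains into phospholipids, was at 36.9, 42.0 and 41.9 CPM in f/f and 31.3, 31.4 and 38.8 CPM in MKO, overlapping, with a log2 fold change of -0.25 ± 0.13 (SE). Lpcat3 overlaps Emg1 on the opposite strand, and whether counting used strand is not given in the sources used here.

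In the BMDM comparison 8 of the 10 members had enough reads to be fitted, and 5 were lower and 3 higher in MKO. Their median log2 fold change was -0.14, beside 0.01 over all 15372 genes. Under the upper-quartile scaling 4 were lower and 4 higher. At an unadjusted p under 0.05, 2 were lower (Ch25h and Nr1h2) and 2 higher (Abcg1 and Mylip), where 10.2% of all genes were lower and 7.73% higher at that threshold. Without MKO replicate 1 there was 1 such member and without MKO replicate 2 there were 2. In 5 members the genotypes did not overlap, as in 28.7% of all genes. At an adjusted p under 0.05 edgeR called 0 members and 0 genes in all (0%), with all 12 libraries in 1 fit it called 1 member and 150 genes, and DESeq2 called 1 member and 1216 genes. These comparisons chose the members, so nothing is read from those counts.

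**Figure D2:**
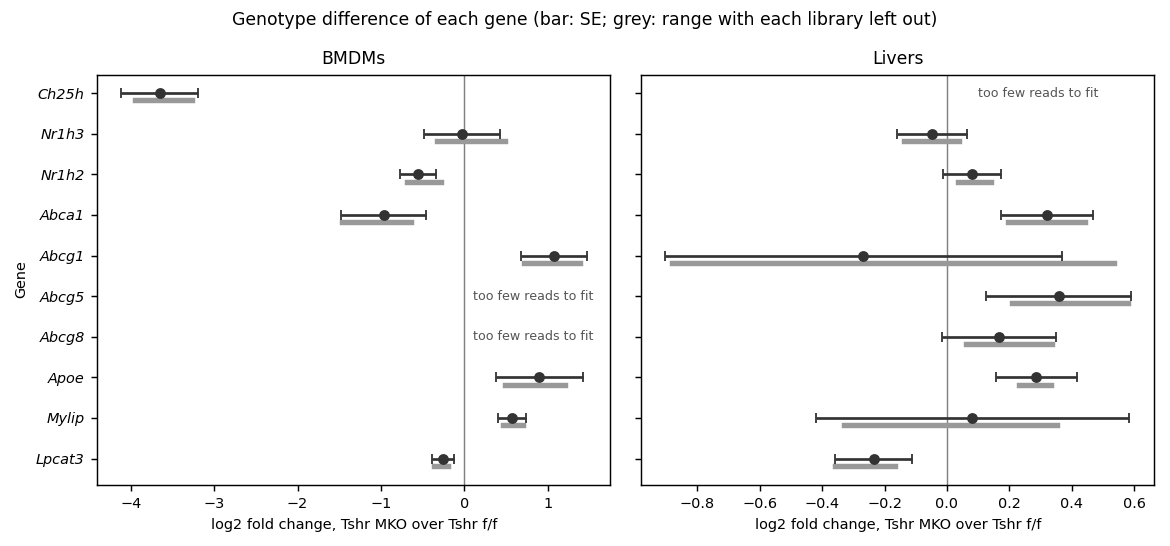
Points plot the log2 fold change of each gene, Tshr MKO over Tshr f/f, in BMDMs (left) and livers (right), with the SE as a bar and, in grey, the range when each library was left out. Ch25h lay at -3.66 in BMDMs and the other fitted members between -0.97 and 1.07, while the liver values lay between -0.27 and 0.36, on a narrower axis.

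The liver values of the same genes lay closer together. Ch25h had 0 counts in all 3 Tshr f/f livers and 2, 6 and 2 counts in the Tshr MKO livers, too few to fit. A count of 0 allows 0.0826 to 0.101 CPM in these f/f libraries, and the MKO values, 0.0558, 0.143 and 0.0708 CPM, sat around that limit. Abca1 was at 175, 150 and 123 CPM in f/f livers and 172, 184 and 204 CPM in MKO livers, a log2 fold change of 0.32 ± 0.15 (SE) with overlapping groups. Apoe was at 19463, 19829 and 19204 CPM in f/f and 25435, 21758 and 24167 CPM in MKO. It was the only fitted member whose liver groups did not overlap, as in 17.3% of all fitted genes, and its log2 fold change was 0.29 ± 0.13 (SE).

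Abcg5 and Abcg8 varied together among livers. Abcg5 was at 57.0, 66.6 and 57.7 CPM in f/f and 89.6, 49.97 and 93.0 CPM in MKO, and Abcg8 at 73.2, 87.5 and 73.8 CPM in f/f and 99.6, 64.5 and 99.4 CPM in MKO. MKO replicate 2 was the lowest of all 6 livers for both genes, so the groups overlapped, with log2 fold changes of 0.36 ± 0.23 and 0.17 ± 0.18 (SE). Their log2 CPM had a Pearson r of 0.98 over the 6 livers. The GENCODE models of the pair share 6710 bases on opposite strands, so reads could be split between them if strand was not used in counting.

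The receptors and the other targets showed small or unsteady liver differences. Nr1h3 was at 112, 110 and 99.9 CPM in f/f and 106, 114 and 90.7 CPM in MKO, and Nr1h2 at 36.0, 34.9 and 40.4 CPM against 41.02, 38.1 and 38.5 CPM, with log2 fold changes of -0.05 ± 0.11 and 0.08 ± 0.09 (SE). Lpcat3 was at 70.7, 69.1 and 80.5 CPM in f/f and 72.3, 58.5 and 56.5 CPM in MKO, with a log2 fold change of -0.23 ± 0.12 (SE). Abcg1 was at 3.89, 19.4 and 8.09 CPM against 6.03, 14.5 and 5.45 CPM, and its log2 fold change of -0.27 ± 0.64 (SE) was 0.54 without f/f replicate 2. Mylip was at 3.52, 13.7 and 13.3 CPM against 14.1, 10.4 and 7.82 CPM, with 0.08 ± 0.50 (SE).

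Liver f/f replicate 1 held the lowest values of both Abcg1 and Mylip. In the same library the 4 endothelial markers summed to 34.4 CPM, against 124 and 117 CPM in the other f/f livers, and the 4 stellate cell or fibroblast markers to 28.3 CPM against 257 and 150 CPM. The 6 macrophage markers summed to 113 CPM there and 311 and 217 CPM in the others. Over MKO livers these sums ran from 80.8 to 112, from 96.3 to 140 and from 132 to 294 CPM, with no marker of the 3 lists at 0. Their part in the Abcg1 and Mylip values was not tested.

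Of the 9 members fitted in livers, 3 were lower and 6 higher in MKO. Their median log2 fold change was 0.08 beside -0.01 over 15062 genes. At an unadjusted p under 0.05 there were 0 members by edgeR and 1 by DESeq2, where 5.18% of all genes were lower and 5.27% higher in MKO by edgeR. At an adjusted p under 0.05 edgeR called 0 members and 0 genes (0%), and DESeq2 called 0 members and 266 genes.

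Genes of the same pathways were taken from 7 lists. In the edgeR fit of each tissue none of their genes passed an adjusted p under 0.05 for genotype, while the edgeR fit of all 12 libraries called 1 of the receptor partners in BMDMs besides those given below. In BMDMs DESeq2 called 1 of 7 oxysterol genes, 3 of 14 partners and cofactors and 1 of 13 other LXR targets. It also called 3 of 15 sterol handling genes and 1 of 12 SREBP2 targets there. In livers it called 1 of 10 oxysterol genes, and further calls are given below. Of all genes, DESeq2 called 696 lower and 520 higher of 15372 in BMDMs, and 142 lower and 124 higher of 15062 in livers. The edgeR fit of all 12 libraries called 85 lower and 65 higher of 17246 in BMDMs. Counts of called list genes, here and below, are a description beside these numbers. The values of named genes are therefore given as differences, and the named genes are among those with the largest fold changes among genes at an unadjusted p under 0.05 whose groups did not overlap. Of the other oxysterol enzymes and receptors, 7 of 12 were fitted in BMDMs, 4 lower and 3 higher in MKO (median log2 fold change -0.08). Cyp27a1, the sterol 27-hydroxylase that makes another LXR ligand, was at 18.4, 13.9 and 3.76 CPM in f/f and 28.5, 27.6 and 52.3 CPM in MKO, with a log2 fold change of 1.58 ± 0.58 (SE). Osbpl8, an oxysterol-binding protein relative that works at membrane contact sites, had 0.65 ± 0.20 (SE). In livers 10 of 12 were fitted, 4 lower and 6 higher (median 0.21), and Cyp46a1, the cholesterol 24-hydroxylase, was at 0.338, 0.854 and 0.497 CPM in f/f and 3.43, 1.12 and 3.11 CPM in MKO.

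Partners and cofactors of the receptors leaned upward in MKO BMDMs, with 11 of 14 higher and a median log2 fold change of 0.23. Rxra, the main partner of both LXRs, was at 122, 116 and 90.2 CPM in f/f and 204, 171 and 207 CPM in MKO, with 0.83 ± 0.17 (SE). The coactivator Ncoa3 had 0.70 ± 0.16, Rxrb 0.56 ± 0.23 and the corepressor exchange factor Tbl1xr1 0.53 ± 0.21 (SE). In livers 13 of 15 were lower (median -0.11), and Hdac3, the deacetylase of the corepressor complex, had 0.32 ± 0.13 (SE).

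Other LXR target genes numbered 13 fitted of 14 in BMDMs, with 8 higher and a median log2 fold change of 0.51. Lpl, the lipoprotein lipase that macrophages secrete, was at 426, 78.45 and 154 CPM in f/f and 1074, 1204 and 643 CPM in MKO, with 2.15 ± 0.64 (SE). Smpdl3a, a phosphodiesterase, had 0.63 ± 0.23 (SE). In livers 9 of 14 were higher (median 0.17), among them Apoc1, an apolipoprotein gene beside Apoe, at 1631, 1489 and 1399 CPM in f/f and 2391, 1833 and 2009 CPM in MKO, or 0.46 ± 0.14 (SE).

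Sterol handling genes split in BMDMs, with 9 of 15 lower and a median log2 fold change of -0.04. Soat2, which esterifies cholesterol, was lower by -1.32 ± 0.40 (SE), whereas Nceh1 and Lipa, which free cholesterol from its esters, were higher by 1.24 ± 0.39 and 1.12 ± 0.36, and the lipoprotein receptor Scarb1 by 0.75 ± 0.22 (SE). In livers 15 of 19 were lower (median -0.18), and Npc1, which exports cholesterol from lysosomes, was at 132.65, 130 and 135 CPM in f/f and 110, 104 and 76.45 CPM in MKO, or -0.45 ± 0.14 (SE).

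SREBP2 target genes, which make and take up cholesterol, were on the lower side in MKO in both tissues by the labels. Under the other genotype headings of the livers, the liver direction would turn round and the tissues would differ. In BMDMs 11 of 12 were lower, with a median log2 fold change of -0.37, and 4 of them were at an unadjusted p under 0.05, against 1 higher. Of all genes, 10.2% were lower and 7.73% higher at that threshold. With upper-quartile factors 10 of 12 were lower, and 1 was lower at that threshold without MKO replicate 1 and 2 without MKO replicate 2. Fdft1, squalene synthase, had -0.44 ± 0.15 and Scap, the SREBP escort, 0.45 ± 0.19 (SE). In livers 12 of 12 were lower, with a median of -0.67. Of these, 6 were at an unadjusted p under 0.05, where 5.18% of all genes were lower. Only Srebf2 had separate groups among those 6, at 90.4, 76.1 and 61.1 CPM in f/f and 44.6, 56.7 and 47.9 CPM in MKO, or -0.61 ± 0.16 (SE). That number of 6 was 1 without f/f replicate 1 or MKO replicate 1, 2 without f/f replicate 2 or MKO replicate 3, and 9 without f/f replicate 3, while all 12 stayed lower each time. The number was also 1 with the first letter of the livers' description codes as a covariate, where the median was -0.53. With a replicate block it was 4, without a filter 5 and by DESeq2 8, again with all 12 lower. DESeq2 called 1 of the 12 at an adjusted p under 0.05 in each tissue.

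Interferon-stimulated and inflammatory genes also lay lower in MKO BMDMs. The edgeR fit of the 6 BMDM libraries called none of them at an adjusted p under 0.05, the edgeR fit of all 12 libraries called 2 and 1, leaving out f/f replicate 2 called 1 and 0, and DESeq2 called 5 and 5. All 11 fitted interferon-stimulated genes were lower in MKO (median log2 fold change -2.11), with 6 at an unadjusted p under 0.05, a number that was 2 without f/f replicate 3, 12 of 12 without f/f replicate 2 and 3 without any other single library. The chemokine gene Cxcl10 was at 770, 29.2 and 1088 CPM in f/f and 15.3, 13.4 and 20.5 CPM in MKO, or -5.26 ± 1.23 (SE). All 10 inflammatory activation genes were lower (median -5.41), with 9 at an unadjusted p under 0.05. That number was 6 without MKO replicate 1 or 2, 7 without f/f replicate 3 and 9 or 10 without any other single library. By DESeq2 it was 5. Of all genes in BMDMs, 10.2% were lower at that threshold. Il6, Nos2, Ptgs2 and Il1b, which encode a cytokine, nitric oxide synthase, cyclooxygenase and interleukin 1β, had log2 fold changes of -9.16 ± 2.13, -8.75 ± 1.67, -7.45 ± 1.94 and -6.11 ± 2.01 (SE). BMDM f/f replicate 3 carried much of their level, with 1453 CPM of Il6 against 58.6 and 25.2 CPM in the other f/f libraries, and without it the list's median was -2.88. For Ch25h the same omission gave -3.26, as stated above, and f/f replicate 2, the lowest of the 3 for Ch25h, was also the lowest for Cxcl10, Il6 and Ptgs2, whereas Nos2 and Il1b were lowest in f/f replicate 1. The 6 neutrophil markers, none at 0 in a whole group, summed to 7.30 to 48.7 CPM in f/f BMDMs and 4.64 to 10.3 CPM in MKO. S100a8 made up most of the f/f sums, at 5.22, 28.9 and 45.6 CPM, and of the 4 markers fitted 2 were lower and 2 higher in MKO. Their part in these differences was not tested. In livers 9 of 11 interferon-stimulated genes were higher (median 0.34), with Cxcl10 at 1.10 ± 0.40 (SE), and 3 of 6 inflammatory genes were higher (median -0.22), with Il1a at 1.08 ± 0.36 (SE).

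**Figure D3:**
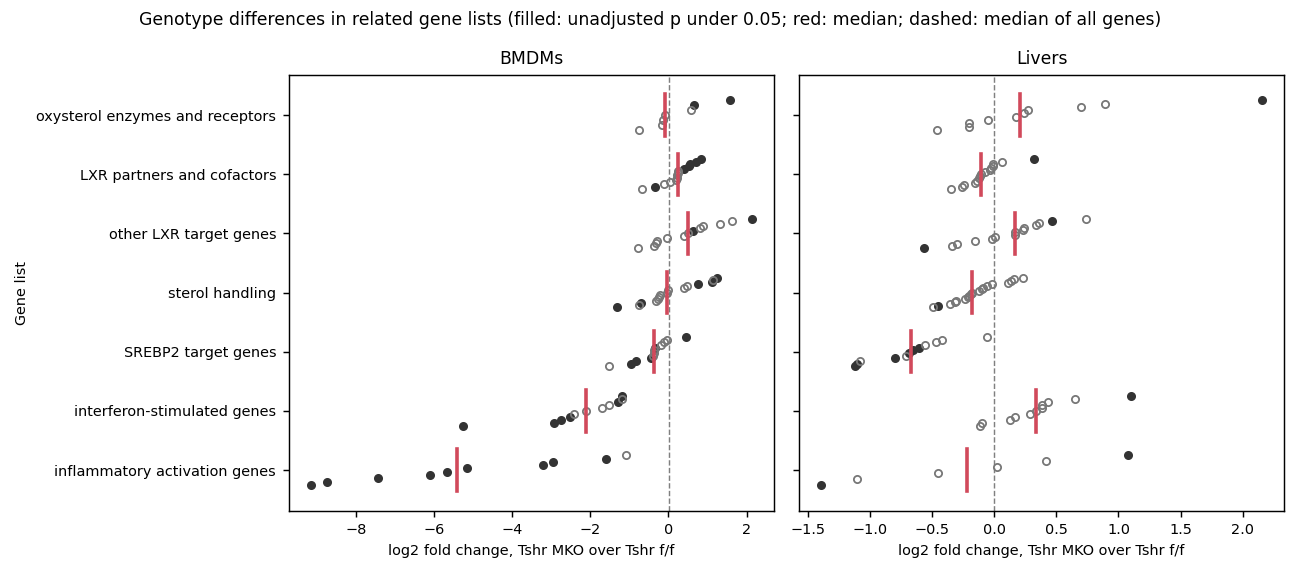
Points plot the log2 fold change, Tshr MKO over Tshr f/f, of each fitted gene in 7 lists, in BMDMs (left) and livers (right, narrower axis). Filled points have an unadjusted p under 0.05, red bars mark each list's median and the dashed line the median of all genes. The inflammatory median lay at -5.41 in BMDMs, and the SREBP2 target medians lay at -0.37 in BMDMs and -0.67 in livers.

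Across the 6 BMDM libraries the LXR target genes correlated with either sign. The log2 CPM of Abca1 had a Pearson r of 0.94 with Lpcat3, -0.74 with Abcg1, -0.57 with Apoe and -0.86 with Mylip. Mylip had r of 0.77 with Apoe, 0.70 with Abcg1 and -0.96 with Lpcat3. Ch25h had r of 0.51 with Abca1, 0.59 with Lpcat3, -0.85 with Abcg1 and 0.82 with Nr1h2. In livers Abca1 had r of 0.64 with Apoe and -0.29 with Abcg1. These 6 points share libraries, depth and genotype and serve as a description only.

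The genes whose log2 CPM was most like that of Ch25h over the 6 BMDM libraries were Gm10163, Gm11878, Il4i1, Gm10240 and Hus1, with Pearson r of 0.993 to 0.999. Il4i1, an amino acid oxidase of activated macrophages, was at 1.15, 0.893 and 2.04 CPM in f/f and 0.287, 0.267 and 0.145 CPM in MKO. Others differed far less than Ch25h, since r does not measure the size of a difference. Gm10163 was at 5.67, 5.52 and 5.91 CPM in f/f and 4.78, 4.80 and 4.51 CPM in MKO, and Hus1 at 19.3, 17.2 and 19.9 against 14.4, 14.8 and 13.3 CPM. Ch25h was selected on this genotype difference, so likeness to it is a description only. For Abca1 they were Ctla2a, Abcc4, Rmc1, Ddx50 and Tbc1d24 in BMDMs, with r of 0.992 to 0.997. In livers they were St3gal4, Gm26608, Serpina1b, Gm3953 and Gm16418, with r of 0.986 to 0.991.

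Between the tissues the members were compared in 1 fit of all 12 libraries, with levels given as CPM per kb of exon so that genes can be ranked. Tissue is confounded with culture, TSH, diet, fasting and insulin, and these cannot be told apart. In Tshr f/f, 8 of 10 members differed between BMDMs and liver at an adjusted p under 0.05, as did 69.3% of all 17246 genes, and in MKO 7 of 10 did, as did 68.5%. Ch25h, Abcg5 and Abcg8 are among the called members in both genotypes. These genes passed the read filter only through the tissue where they are high, so their calls say no more than the counts do. The BMDM f/f libraries enter this comparison too, so the Ch25h value in f/f is not independent of the genotype values above. The median of all genes was -0.03 in f/f and -0.07 in MKO, and upper-quartile scaling put it at 0.12 and 0.14 without changing any call on a member.

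Ch25h was a BMDM gene in both genotypes. It stood at 11.7, 6.66 and 17.9 CPM per kb in f/f BMDMs against 0 in f/f livers, at least 131-fold higher when 3 counts per liver library are taken as the limit. In MKO it stood at 1.11, 1.18 and 0.583 against 0.0554, 0.143 and 0.0679 CPM per kb, a ratio of 10.2 with a counting interval of 5.55 to 21.3. Abcg5 and Abcg8 were liver genes. Abcg5 was at 28.1, 33.5 and 28.9 CPM per kb and Abcg8 at 26.1, 31.8 and 26.8 CPM per kb in f/f livers, at least 1291-fold and 1670-fold higher than in f/f BMDMs. In MKO the ratio for Abcg5 was 3252 with a counting interval of 1393 to 10015, and Abcg8 was at least 2109-fold higher in liver.

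Nr1h3, Apoe and Lpcat3 were higher in liver in both genotypes. Nr1h3 was at 37.4, 12.7 and 21.3 CPM per kb in f/f BMDMs and 59.4, 59.4 and 54.0 CPM per kb in f/f livers, a log2 difference, BMDM minus liver, of -1.28 ± 0.37 in f/f and -1.27 ± 0.37 (SE) in MKO (adjusted p = 0.0101 and 0.0104, edgeR). Apoe had -2.18 ± 0.42 and -1.58 ± 0.41 (SE) (adjusted p = 8.85e-04 and 0.00600, edgeR). Lpcat3 had -1.75 ± 0.15 and -1.77 ± 0.15 (SE) (adjusted p = 1.72e-06 and 1.54e-06, edgeR). Nr1h2 went the other way in f/f, with 0.76 ± 0.18 (SE) and an adjusted p of 0.00304, and in MKO had 0.13 ± 0.18 (SE) with an adjusted p of 0.543 by edgeR.

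Abca1 passed the threshold in f/f and Abcg1 in MKO, and neither call held with each library left out. The difference between genotypes was not called for either gene, with adjusted p of 0.338 and 0.485 (edgeR). Abca1 was 1.19 ± 0.41 (SE) higher in BMDMs on the log2 scale in f/f (adjusted p = 0.0230, edgeR), and the adjusted p rose to between 0.0526 and 0.0801 without BMDM f/f replicate 2 or 3 or liver f/f replicate 2 or 3. In MKO it was -0.09 ± 0.40 (SE). Abcg1 was 1.90 ± 0.61 (SE) higher in BMDMs in MKO (adjusted p = 0.0167, edgeR), with an adjusted p of 0.0625 without liver MKO replicate 1 and 0.0627 without replicate 3, and 0.56 ± 0.59 (SE) in f/f. Mylip differed by -0.05 ± 0.42 in f/f and 0.44 ± 0.42 (SE) in MKO, past the threshold in neither.

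The genotype difference itself was compared between tissues in the same fit. This contrast holds the BMDM genotype difference on which the members were selected, so its values are a description. edgeR called 0 members and 1 gene in all at an adjusted p under 0.05 (0.0058%), and DESeq2 called 1 member. At an unadjusted p under 0.05, 3 members were on the lower side by edgeR, as were 7.42% of all genes. These were Ch25h, Abca1 and Nr1h2. For Ch25h the log2 difference depends on liver counts at or near 0 and on the liver labels, so it is not given. Abca1 had -1.29 ± 0.57 and Nr1h2 -0.64 ± 0.25 (SE).

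Ranked per length, Apoe was the most abundant member in all 4 groups, at 2718 ± 1592 CPM per kb (SD, n = 3) in f/f BMDMs and 12343 ± 267 in f/f livers, and its range met that of no other member. In f/f BMDMs Abca1 followed at 44.5 ± 21.2, then Nr1h2 at 25.4 ± 7.66, Nr1h3 at 23.8 ± 12.6 and Ch25h at 12.1 ± 5.62, each overlapping the next, and Ch25h overlapped Lpcat3 at 9.04 ± 0.612. Mylip at 4.13 ± 0.586 and Abcg1 at 2.88 ± 1.43 overlapped below them. In MKO BMDMs the order after Apoe was Nr1h3 at 23.3 ± 8.47, Abca1 at 23.0 ± 11.99 and Nr1h2 at 17.4 ± 1.02, which overlapped, then Lpcat3 at 7.65 ± 1.05, and Mylip at 6.17 ± 0.914 and Abcg1 at 6.11 ± 0.296, which overlapped. Ch25h came next at 0.958 ± 0.327, separate from both neighbors.

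In f/f livers Nr1h3 came second at 57.6 ± 3.14, separate from Apoe above and from Lpcat3 below. Lpcat3 at 30.4 ± 2.68, Abcg5 at 30.2 ± 2.90 and Abcg8 at 28.2 ± 3.14 overlapped, as did Abca1 at 19.5 ± 3.18 and Nr1h2 at 15.0 ± 1.23, and Mylip at 4.28 ± 2.45 and Abcg1 at 1.95 ± 1.50. In MKO livers Nr1h3 at 56.3 ± 7.63 was again second, and Abcg5, Abcg8, Lpcat3 and Abca1 followed from 38.9 ± 11.5 to 24.5 ± 1.68, each overlapping the next. Nr1h2 at 15.96 ± 0.802, Mylip at 4.56 ± 1.39, Abcg1 at 1.63 ± 0.983 and Ch25h at 0.0887 ± 0.0473 CPM per kb were each separate from their neighbors.

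**Figure D4:**
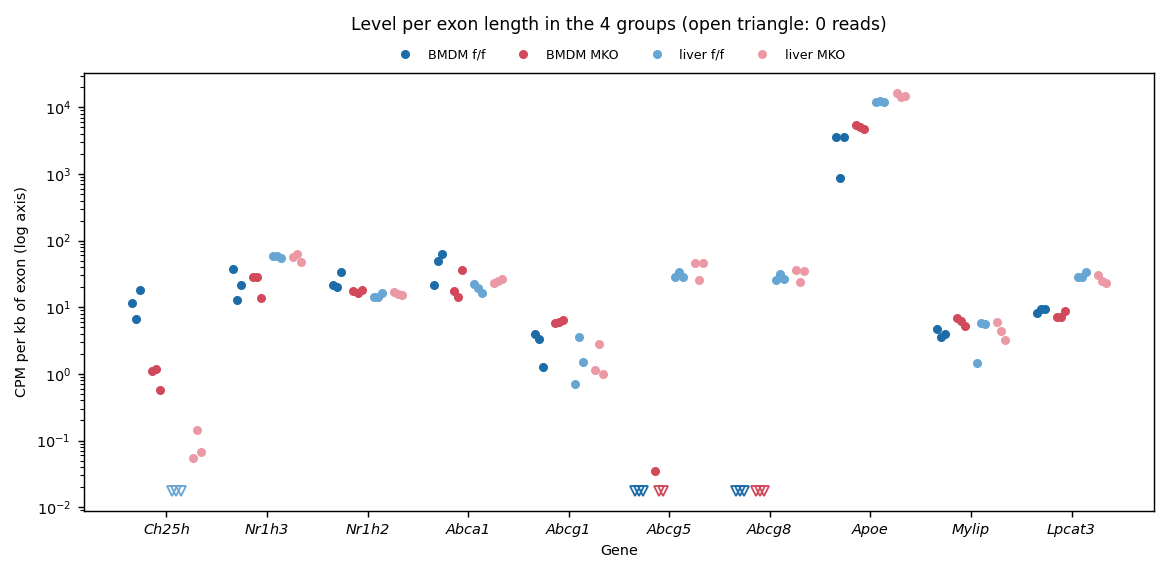
Points plot CPM per kb of exon on a log axis for each gene in each library, colored by group, with an open triangle for 0 reads. Apoe lay at 879 or more in all libraries, the receptors and Abca1 between 12.7 and 63.02, and Ch25h, Abcg5 and Abcg8 were the members with 0 reads in at least 1 group.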

How the data were processed

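Gene counts were deposited for 12 strand-specific TruSeq libraries, 3 per genotype and tissue. The values are whole-number counts that the authors made and left without normalization. The submitters' processing notes name FastQC 0.11.2, STAR, StringTie and mm10, and the counting tool and its strand setting are not given in the sources used here. The members and gene lists were chosen with earlier results of these data known.

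Each tissue was fitted with edgeR 4.0.16 (R 4.3.3), using TMM factors, filterByExpr and the robust quasi-likelihood test for genotype. A fit of all 12 libraries with 4 group means gave the tissue and genotype by tissue contrasts. P-values were Benjamini-Hochberg adjusted over all genes of a fit. The count test was run on simulated data, where a minimum share of called changes was required for the liver genotype comparison only. No such share was required for BMDMs, so the lack of calls there does not mean that no gene differed. The named genes were the 10 members, Tshr and Lyz2, up to 4 genes per list and comparison with the largest fold change among those at an unadjusted p under 0.05 with separate groups, and the 5 genes most correlated with Ch25h (BMDMs) or Abca1 (each tissue). A few genes that this rule names are not reported here. Exon lengths and coordinates came from GENCODE M21 (GRCm38), where 55154 of 55335 gene IDs matched, and promoters from RefSeq.

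Alternatives were RLE and upper-quartile factors, leaving out the filter, requiring a mean count of 50, DESeq2 1.42.0, a replicate block, all 12 libraries for genotype, only the 6 libraries of a genotype for tissue, the first letter of the livers' description codes as a covariate, and leaving out each library. Limits for 0 use 3 counts per library, and intervals (95%, exact) and limits cover counting error only, since reads carry no molecular identifiers. Depth was 28962878 to 40954211 counts per library.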

Additional observations from a re-analysis of the deposited data

How the results depend on the processing

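In BMDMs edgeR called 0 genes at an adjusted p under 0.05, against 1216 by DESeq2, 150 with all 12 libraries in 1 fit, 1 with the replicate block and 0 to 13 with a library left out. In livers it called 0, against 266 by DESeq2, 1 without a filter and 0 to 7 with a library left out. BMDM members at an unadjusted p under 0.05 numbered 4, and 1 to 5 with a library left out. Liver members numbered 0, against 1 with upper-quartile factors, 2 without a filter, 1 by DESeq2, 1 with all 12 libraries, 2 with the description letter as covariate and 0 to 2 with a library left out. For genotype by tissue DESeq2 called 1 member and leaving out a library gave 0 to 1. The cause of these shifts was not tested, beyond the fewer samples of the fits that leave one out. The tissue counts of 8 and 7 members stayed within 1.5 times under all alternatives run.

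Over single members 659 values kept their side of the threshold or moved by less than their spread, 3 moved further, 6 lost a call and 2 gained one, and none of the called values reversed. Deviations of same-numbered libraries correlated at 0.096, 0.013 and 0.102 in BMDMs and -0.056, 0.217 and -0.021 in livers. Those of differently numbered libraries ran from -0.191 to 0.153 in BMDMs and from -0.291 to 0.281 in livers. With 3 libraries per group, these values cannot decide whether same-numbered libraries were paired. With the replicate block 5 BMDM members and 0 liver members were at an unadjusted p under 0.05. Depth limits Ch25h in liver and Abcg5 and Abcg8 in BMDMs, where a library's count of 0 allows about 0.1 CPM.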
